A study of Mus musculus with 14 samples.

Results

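The miRNAs described here are the star strands of hairpins with older names that were read often enough to measure in 14 tissues of C57BL/6J mice. A name was taken when it ended in a star, had a number below 1000, did not belong to the repeat-rich miR-297, miR-466, miR-467 or miR-669 names, and had at least 100 reads summed over the 14 libraries. Of the 1046 names listed, 331 carried a star, 264 fitted the name rule, and 108 of these reached the read minimum. A further 121 had 1 to 99 reads and 35 had none. The members were chosen by their summed reads, so those sums are given as description only. Just inside the minimum lay miR-351* with 101 reads, miR-493* with 103, miR-193b* with 110 and miR-497* with 113, and just outside lay miR-26a-2* with 89 and let-7e* with 85. The members held 481832 of the 486168 reads on star names, which is 99.1%, and 0.595% of all reads.

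Cerebellum and the brain, the heart, lung and spleen, the digestive tract (oesophagus, stomach, small intestine, colon), liver and pancreas, kidney, and ovary and uterus were each represented by 1 small-RNA library made from Trizol total RNA pooled over animals. The labels name 5 mice for the harvest and 10 for the pool, and do not settle which holds. They give neither age nor treatment. With 1 library per tissue there is no replicate check, no test was run, and every interval below covers counting error only, at 95% confidence. In whole tissue, fewer cells of a type and less RNA per cell cannot be told apart.

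A miRNA hairpin is cut into a duplex of its 5p and 3p arms, and an Argonaute protein keeps mainly 1 strand of it, the guide, while the other strand is usually discarded. Older names give the strand that was rarer in the first tissues studied a star, and the name stays with the strand even where it is the more abundant one. Which strand is kept depends on the end that opens more easily and on the first base, since Argonaute favours U or A there. A retained star has a seed of its own, the bases 2 to 8 that pair with target mRNAs, and so a different set of targets. A star read also marks its hairpin, because sister hairpins with the same guide often differ in their star.

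Sequences of 95 members were found in RefSeq (build GRCm38.p6), 61 on the 3p arm and 34 on the 5p arm. The first set below holds stars that outnumbered their guides, with the guide of miR-28 for comparison and with miR-376c*, a minor strand shown because it is nearly identical to miR-376b*. Letters run 5′ to 3′ and capitals mark the seed.
miR-140*: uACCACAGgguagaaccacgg
miR-144*: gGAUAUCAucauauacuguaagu
miR-28*: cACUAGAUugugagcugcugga
miR-28 (guide): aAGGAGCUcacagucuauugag
miR-664*: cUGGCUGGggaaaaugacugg
miR-376b*: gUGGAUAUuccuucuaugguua
miR-376c*: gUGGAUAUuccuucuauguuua
miR-431*: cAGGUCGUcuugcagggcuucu
miR-455*: uAUGUGCCuuuggacuacaucg
miR-503*: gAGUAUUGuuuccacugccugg

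The second set holds let-7 and miR-30 stars described at length below, and stars of sister hairpins, which tell apart loci that share a guide.
let-7d*: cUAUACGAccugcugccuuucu
let-7a-1*: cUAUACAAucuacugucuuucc
let-7c-2*: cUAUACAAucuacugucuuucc
miR-30a*: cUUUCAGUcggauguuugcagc
miR-30e*: cUUUCAGUcggauguuuacagc
miR-30c-1*: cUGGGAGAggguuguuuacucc
miR-30c-2*: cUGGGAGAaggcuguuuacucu
miR-24-1*: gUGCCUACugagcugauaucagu
miR-24-2*: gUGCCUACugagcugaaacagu
miR-194-1*: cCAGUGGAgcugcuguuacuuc
miR-194-2*: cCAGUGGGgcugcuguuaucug
miR-181a-1*: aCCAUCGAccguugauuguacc
miR-181a-2*: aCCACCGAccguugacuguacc

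Several of these can share reads. let-7a-1* and let-7c-2* have the same sequence, and their counts were equal in 5 libraries and at most 7 reads apart in the others. miR-30a* and miR-30e* differ by the single substitution G18A and miR-376b* and miR-376c* by G19U, counted from 1 at the 5′ end with the base of the first named strand given first. In all, 14 members lay within 2 differences of another mature mouse sequence, and how the authors' counting divided such reads is not given in the sources used here. Members fell into shared seeds 10 times, covering 22 members. The widest of these groups was the let-7 star seed UAUACAA in let-7a-1*, let-7b*, let-7c-2* and let-7f-1*, while let-7d*, with UAUACGA, stood outside it. The sister stars miR-24-1* and miR-24-2* kept 1 seed, and miR-181a-1* and miR-181a-2* did not, since their substitution U5C lies inside it.

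Total counts ran from 622132 in pancreas and 1134677 in cerebellum to 9341000 in small intestine. Levels are counts divided by the library total and multiplied by 1000000 (RPM). miR-143 alone took 98.7% of the reads in the library labelled colon and 87.1% in ovary, which left 86545 and 292350 other reads and low RPM for every star there. The 4 intestinal guides miR-192, miR-194, miR-215 and miR-200b reached a sum of 215413 RPM in small intestine, 81291 RPM in the uterus-labelled library and only 28.9 RPM in the colon-labelled one, so both are named by their labels. Several other libraries carried guides known for their tissue, such as miR-122 at 437407 RPM in liver, miR-1 at 318375 RPM in heart and miR-217 at 2967 RPM in pancreas. In stomach the 4 intestinal guides summed to 7821 RPM, under their 16271 RPM in oesophagus. Cerebellum also held muscle-linked guides above their brain level, miR-206 at 7143 against 459 RPM and miR-378 at 345120 against 23444 RPM, while miR-1 stood at 2045 against 3160 RPM and miR-133a at 28.2 against 11.5 RPM. Their part in the cerebellum results was not tested. A share of a hairpin is free of the library total, since both arms come from 1 library, and it sets sequences against each other whose capture was not measured.

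The star was the minor strand in most hairpins and the major strand in a few. The star share was taken as star reads over the reads of both arms, in each library with at least 100 reads of both. The median over a member's libraries could be given for 107 members, and its median over members was 4.76%. It was under 1% for 35 members, from 1% to under 10% for 34, from 10% to under 50% for 27 and at least 50% for 11. miR-493* was the member with no library at the minimum. The lowest medians belonged to let-7f-1* (0.00333%), miR-378* (0.00863%), miR-21* (0.0143%) and miR-143* (0.0144%), whose guides are among the most abundant miRNAs of these tissues. The plot of ranked ratios shows this spread, and the range over libraries within a member.

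**Figure D1:**
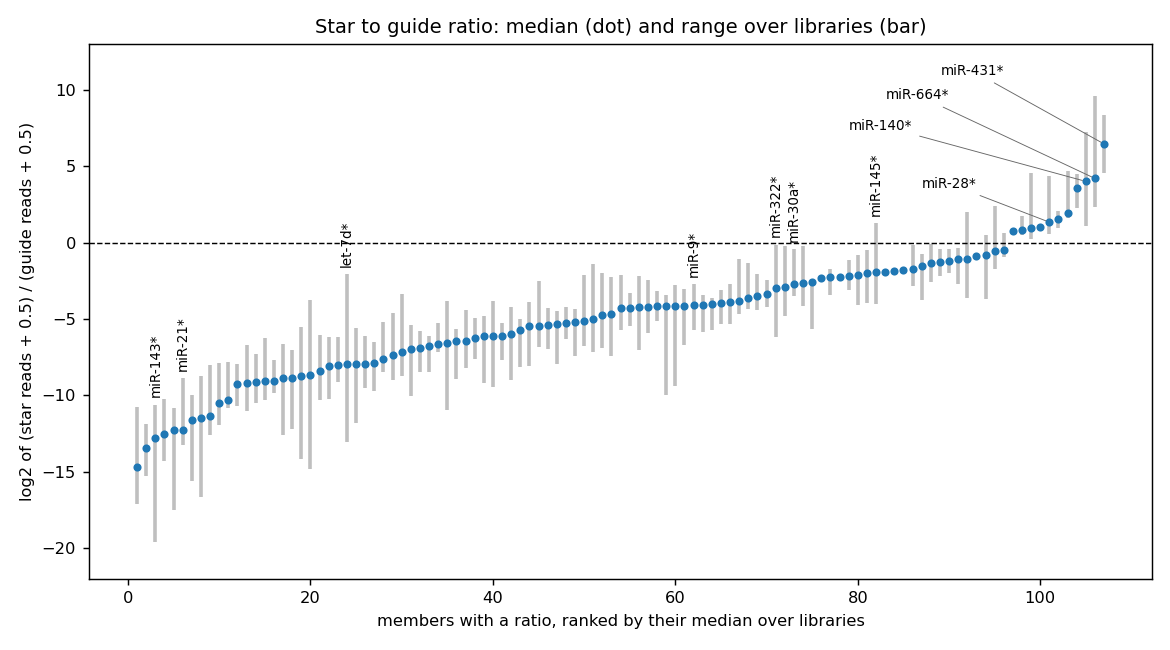
Star to guide ratio of the 107 members with a ratio, ranked; the vertical axis is log2 of star over guide reads with 0.5 read added to each, dots are medians over libraries and bars run from the lowest to the highest library. The 11 members at the right have medians above the dashed line of equal arms, and many bars span several log2 units.

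The star outnumbered the guide in every library that could be read for 11 members: miR-140*, miR-144*, miR-193*, miR-28*, miR-329*, miR-376b*, miR-431*, miR-455*, miR-503*, miR-664* and miR-667*. A further 5, miR-145*, miR-30c-2*, miR-330*, miR-365-2* and miR-674*, lay on both sides of 50%, so that 16 of 107 members (15%) reached 50% somewhere. Over all 225 star and guide pairs of the table with enough reads the figure was 8%, and that set includes the members. Members needed at least 100 star reads in all, which leaves out hairpins with few star reads. The percentages thus compare unlike sets, and the difference is partly set by the rule. With at least 500 reads of both arms in place of 100 the count was 9.

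miR-140*, from a hairpin inside the ubiquitin ligase gene Wwp2 and best known from cartilage, was the most abundant star of all, with 128594 reads against 13140 of its guide. On GRCm38.p6 it lies at chr8:107551288-107551308 on the plus strand, within Wwp2 and overlapping an exon of at least 1 GENCODE M21 transcript. Its share was 67.5% (66.3 to 68.7) in brain and between 89.2% and 99.6% in the other 12 libraries with a share, 97.8% in cerebellum among them. Brain thus had the highest share of guide, 1857 reads beside 3860 of the star. The level ran from 14.7 RPM in the library labelled colon through a median of 912.5 RPM to 3985 RPM (3945 to 4026) in kidney, with lung, spleen and oesophagus at 3301, 3282 and 2821 RPM. miR-143 took 29.6% of the reads in kidney, 61.1% in lung and 51.8% in spleen, so the order of these levels depends on it.

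miR-144*, which is made beside miR-451 in red blood cell precursors, had 30574 reads against 3244 of its guide. Its share lay between 82.6% (81.5 to 83.7) in lung and 95.7% (94.9 to 96.5) in oesophagus over 9 libraries. The level was highest in spleen at 2802 RPM, followed by lung at 662, kidney at 636.5 and oesophagus at 440.6 RPM, and it was 10.6 RPM in cerebellum and 5.98 RPM in the library labelled uterus. miR-451, the red cell miRNA, was also highest in spleen at 657.8 RPM, and stood at 573 in kidney, 439.7 in lung, 18.5 in cerebellum and 6.21 RPM in the uterus-labelled library. The part of blood in these levels was not tested.

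miR-28*, from an intron of Lpp (chr16:24827908-24827929, plus strand), had 25941 reads against 9048 of its guide. Its share was lowest in brain at 59.6% (55.1 to 64.1), near 70% in spleen (70.4%) and kidney (68.2%), and highest in cerebellum at 95.4% (93.8 to 96.6). In cerebellum 926 star reads stood beside 45 guide reads. miR-664*, from an intron of Rab3gap2 (chr1:185242975-185242995, plus strand), went the same way, with 610 star and 121 guide reads in brain (83.4%) and 388 star and 0 guide reads in cerebellum (100%, with a lower bound of 99.1%).

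The hairpins of miR-431*, miR-376b*, miR-329* and miR-667* belong to the imprinted Dlk1-Dio3 region, a large cluster expressed from the maternal chromosome and mainly in neurons. miR-431* had 225 star and 9 guide reads in brain and 162 and 0 in cerebellum. miR-376b* had 5845 and 1933 reads in brain (75.1%), 266 and 73 in stomach (78.5%), and 373 and 14 in oesophagus (96.4%, 94.0 to 98.0). Its share in cerebellum was 81.1%. miR-329* and miR-667* could be read in brain alone, at 66.9% and 62.8%.

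miR-455*, from an intron of the collagen gene Col27a1 (chr4:63256867-63256888, plus strand), was even-handed in oesophagus at 53.7% (45.7 to 61.6) and strongly star-led in stomach at 96.1% (94.2 to 97.5), where 586 star reads stood beside 24 guide reads. In lung, kidney, small intestine and the library labelled uterus it lay between 61.7% and 71.5%. miR-503*, whose hairpin lies beside that of miR-322 on the X chromosome, had shares of 59.1% in oesophagus, 65.1% in heart and 77.0% in lung. In kidney 315 star reads stood beside 187 guide reads. miR-193* was read in liver at 81.2% and in kidney at 66.2%.

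Among the hairpins that changed sides, miR-145*, from the smooth muscle pair miR-143 and miR-145, ran from 5.63% (3.95 to 7.74) in brain to 70.9% (63.5 to 77.5) in liver. Its share was 10.3% in stomach, where it had 1356 star and 11827 guide reads, and 68.9% in the library labelled colon, on 177 and 80 reads. miR-365-2* was at 23.1% in stomach and 24.2% in oesophagus but 59.9% in kidney and 84.2% in liver. miR-330* was at 58.9% in oesophagus, 52.6% in kidney, 36.2% in brain and 7.14% (5.64 to 8.90) in cerebellum. miR-674* lay between 34.3% in cerebellum and 60.3% in lung. miR-30c-2* is described with the miR-30 hairpins.

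**Figure D2:**
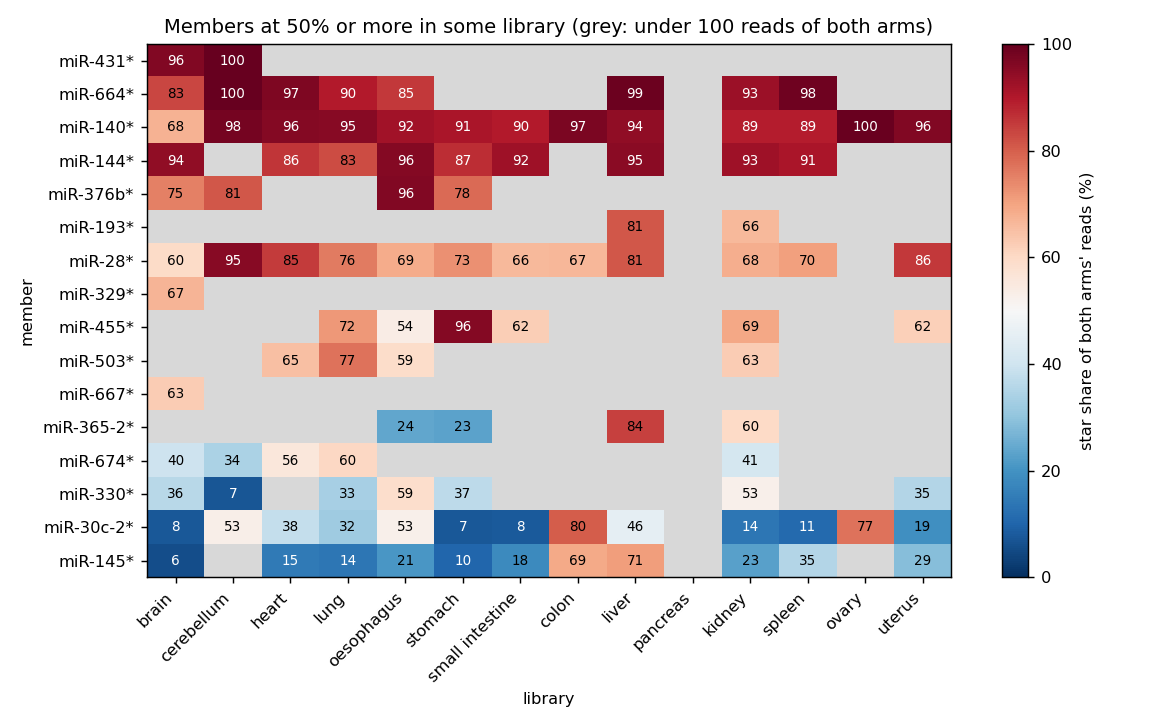
Star share (%, printed in each cell and shown by colour) of the 16 members at 50% or more in some library, by library; grey cells had fewer than 100 reads of both arms. The upper 11 rows are above 50% in every filled cell, and the lower 5 hold cells on both sides, such as miR-145* with 6 in brain and 71 in liver.

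The members' first bases differed from those of their guides. For the 90 members with both arms in the RefSeq table, the star began with U in 13 (14.4%), with A in 24, with G in 13 and with C in 40 (44.4%). The guide began with U in 57 (63.3%), with A in 20, with C in 8 and with G in 5. The star strand lay on the 3p arm in 57 of the 90 pairs. Of the star-led members with a median of 50% or more, 10 had both arms in the table: 2 of these stars and 5 of their guides began with U, and 3 of the 10 stars lay on the 3p arm. Of the 30 members under 1%, 5 stars and 22 guides began with U, and 23 stars lay on the 3p arm. The shares chose these sets, so the counts are a description. Of the 95 stars, 32 lay inside a protein-coding gene on the same strand by GENCODE M21.

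A few stars held most of the star reads. miR-140*, miR-30a*, miR-30e*, miR-144*, miR-28*, miR-9* and miR-30c-2* made up 78.5% of the members' reads, while the median member had 500 reads in all. At least 1000 RPM was reached somewhere by 8 members, 100 RPM by 28 and 10 RPM by 96, and 19 members had a read in all 14 libraries. Members together summed to 19399 RPM in cerebellum, 11657 in kidney, 10248 in lung and 9823 in brain, and to 892 RPM in pancreas, 418 in ovary and 114 in the library labelled colon. Without miR-143 in the totals the highest sums were 26361 RPM in lung, 20321 in cerebellum and 17989 in spleen, and the library labelled colon reached 8816, so the order of the libraries changed with that 1 miRNA. The leading star was miR-9* in brain, miR-30a* in cerebellum, lung, liver and pancreas, miR-30e* in heart, miR-145* in the library labelled colon and miR-322* in ovary. miR-140* led in the other 6.

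The highest library of a member was brain for 29 members and cerebellum for 31, together 60 of 108 (55.6%). Of the 424 names with at least 100 reads, members included, 55.2% were highest in these libraries, so the members' share was that of the table. On totals that leave out miR-143 the members' count was 45 (41.7%, against 42.9% of the names). On median-of-ratios factors it was 49 (45.4%, against 46.2%).

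Stars followed their guides across tissues in most hairpins. Over the 14 libraries, which share their totals between both strands, Spearman's rho between star and guide RPM had a median of 0.82 over the 108 members, and 0.71 with miR-143 left out of the totals. It was at least 0.8 for 61 members and under 0.5 for 15. Most let-7 stars were among the lowest, with let-7a-1* at 0.10, let-7f-1* at 0.21, let-7c-2* at 0.26 and let-7d* at 0.34, and without miR-143 in the totals these values were −0.15, −0.18, 0.19 and −0.10. Star and guide had the same highest library in 60 of the 108 hairpins. Since 55.2% of the 424 names were highest in brain or cerebellum, unrelated pairs can match too, and such pairs were not compared.

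The miR-30 family, broadly expressed and abundant in kidney and heart, gave 5 members that together had 10488 RPM in cerebellum, 5198 in kidney, 4756 in lung and 582 in small intestine. With miR-143 left out of the totals their highest sum was in lung, at 12234 RPM, and on median-of-ratios factors it was again in cerebellum. The levels that follow are on full totals. miR-30a* was at 5149 RPM (5017 to 5282) in cerebellum, 3738 in lung, 3280 in kidney and 1231 in brain. miR-30e* was at 3991 RPM in cerebellum, 1571 in heart, 1413 in kidney and 844 in brain. Their shares of the hairpin went side by side, and since the strands differ at 1 base, reads may be shared between them. miR-30a* had 43.1% (42.3 to 43.9) in oesophagus, 31.4% in cerebellum, 24.9% in spleen and 8.53% in kidney, and miR-30e* had 44.5%, 46.4%, 23.4% and 5.30% in the same libraries. miR-30c-2*, whose hairpin lies 19361 bases from that of miR-30a on chromosome 1, had 53% in cerebellum, 52.7% in oesophagus, 13.9% in kidney, 7.57% in brain and 7.49% in stomach. It had 80.2% (71.3 to 87.3) in the library labelled colon and 77.0% (69.4 to 83.5) in ovary, on 85 star and 21 guide reads and on 114 and 34. miR-30c is made by 2 hairpins, and its guide reads cannot be assigned to 1 of them. With the guide reads divided by 2 it ran from 13.9% to 89.0%, with a median of 48.8% in place of 32.3%.

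The let-7 guides, developmental-timing miRNAs that stay abundant in adult tissue, had 7 measured stars that were rare in most libraries, with a median share of 0.0313% over the group. let-7d* was the exception in 1 library. It had 322 star and 1334 guide reads in cerebellum, a share of 19.4% (17.6 to 21.4), and 69 and 54626 in brain, a share of 0.126%. In the other libraries it lay between 0 of 992 reads in pancreas, where 3 reads are the floor, and 1.66% in heart. The guide was 10274 RPM in brain and 1176 RPM in cerebellum while the star was 13 and 284 RPM, so the strands went in opposite directions. All 7 stars together had 523 RPM in cerebellum, 102 in brain and 87.6 in lung. let-7i*, let-7a-1*, let-7g* and let-7f-1* also had their highest shares in cerebellum, at 1.51%, 0.231%, 0.0769% and 0.0546%. These rested on 68, 71, 5 and 10 star reads. let-7b* was highest in small intestine and let-7c-2* in stomach.

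Neural hairpins gave 9 members, among them miR-9*, the partner of the neural precursor miRNA miR-9. miR-9* was even between brain (2371 RPM, 2330 to 2413) and cerebellum (2235 RPM, 2149 to 2324) and at most 22.2 RPM elsewhere. Its guide was at 62282 RPM in brain and 14705 RPM in cerebellum, and the share of the star was 3.67% and 13.2% (12.7 to 13.7). miR-124*, from the pan-neuronal miR-124, went the other way at low level, with a share of 0.904% in brain and 0.279% in cerebellum. miR-132* had 7.51% in brain and 5.48% in cerebellum. miR-138-1* and miR-128-2* stayed at medians of 0.384% and 0.559%.

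The Dlk1-Dio3 region gave 13 members of 30 names in the table, with a median share of 23.9% over those with a share, from 0.0669% for miR-379* to 98.1% for miR-431*. Together they had 2303 RPM in brain, 2022 in cerebellum, 154 in oesophagus and at most 69.2 RPM in the other libraries. miR-376b* and miR-136* made up most of the brain sum, at 1099 and 642 RPM, and miR-127* most of the cerebellum sum, at 1584 RPM. Within this 1 region the stars thus differed in which of the libraries they favoured.

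Muscle hairpins gave 4 members of 8 names listed, and smooth muscle and mesenchymal hairpins 9 of 13. The muscle members together had 244 RPM in cerebellum, 215 in heart and 197 in oesophagus. In cerebellum miR-30c-1* gave 172 RPM of this and miR-486* 47.6 RPM. Without miR-143 in the totals the highest sum was in heart, at 274 RPM. miR-133a*, from a hairpin of striated muscle, had 423 reads in heart and 598 in oesophagus, which in the mouse has a striated muscle wall, and at most 12 reads in any other library. Its guide had 10609 reads in heart and 1237 in oesophagus, so the share was 3.83% (3.48 to 4.21) and 32.6% (30.4 to 34.8). miR-133a is made by 2 hairpins, and its guide reads cannot be assigned to 1 of them. miR-143* stayed between 0 and 0.0643% of its hairpin, although its 242 RPM in stomach made it the leading star of the smooth muscle group there. miR-322*, from the X-linked cluster with miR-503, had 47.8% (43.2 to 52.4) in ovary, 18.7% in oesophagus, 15.8% in kidney and 1.29% in brain. The ovary library held 228 of its star reads, and the star was at 0 reads in cerebellum.

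Epithelial hairpins gave 5 members, and hepatic, renal and intestinal hairpins gave 10. miR-200b* was 181 RPM in the library labelled uterus, 126 in kidney, 102 in small intestine and at most 1.76 RPM in brain, cerebellum, heart, liver and spleen. miR-215*, made with miR-194-1 in intestine, had 686 RPM in small intestine and 40.5 RPM in the library labelled uterus, where the intestinal guides stood high as well. Its share was 0.403% and its guide 169673 RPM in small intestine. miR-802*, from a hairpin active in liver and pancreas, was 211 RPM (176 to 250) in pancreas on 131 reads and 25.4 RPM in liver. Its share was 42.0% in pancreas, 36.9% in liver and 5.97% (4.98 to 7.10) in small intestine, where the guide had 1889 reads.

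The blood cell and endothelial hairpins gave 13 members that summed to 3013 RPM in spleen, 982 in lung and 964 in oesophagus, with miR-144* as the main part. miR-223*, from the myeloid hairpin miR-223, had 89 star and 120 guide reads in spleen (42.6%) and 20 and 82 in lung (19.6%). miR-150*, from the lymphocyte hairpin miR-150, had a share of 4.69% (4.07 to 5.39) in spleen. In lung it had 4.30% (2.48 to 6.89) on 16 star reads, so the intervals overlapped. Of the 7 members from the proliferation-linked clusters of miR-17, miR-106b and miR-15, all together had 181 RPM in spleen and at most 73.8 RPM elsewhere.

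The tissue lists above held 80 of the 108 members. The other 28, miR-140*, miR-28*, miR-664* and miR-455* among them, had a median star share of 8.26%, with 5 under 1% and 4 at 50% or more. Their highest level ran from 4.88 RPM for miR-351* to 3985 RPM for miR-140*, with a median of 26.3 RPM.

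The rule for enrichment asked for at least 100 RPM in the highest library and at least 5-fold over the second, with 1 RPM added. By it, 8 of 108 members (7.41%) were tissue-enriched, against 10.4% of the 424 names, which include guides and were not matched for level. let-7d*, miR-127*, miR-204* and miR-30c-1* were enriched in cerebellum, miR-136* and miR-376b* in brain, miR-215* in small intestine and miR-802* in pancreas. The sister of miR-30c-1*, miR-30c-2*, missed the rule. The call of miR-30c-1* rested on the scaling: its fold over the second library was 5.31 on full totals, 3.89 when miR-143 was left out of them, 2.86 on median-of-ratios factors and 2.12 without the 5 most abundant names. let-7d* fell under the rule without miR-143, at 3.94-fold in place of 7.93-fold. miR-204* was not called on median-of-ratios factors, although its fold there was 26.0, and 6 of the 8 members were called on them. With totals without the 5 most abundant names 15 members passed, and 7 of the 8 were among them.

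Few stars passed the rule of size between brain and cerebellum, which could call no star under 100 RPM. Some stars under that level differed widely. miR-411* had 234 reads in brain and 1 in cerebellum (49.9-fold), and miR-486* had 2 and 54 (127-fold higher in cerebellum). With a minimum of 10 RPM, 16 members were higher in brain and 13 in cerebellum. The share over all names at that minimum is not given, so these counts are a description only. At least 4-fold higher in brain, with at least 100 RPM, were 3 members (2.78%), against 11.3% of the 424 names: miR-376b* by 10.8-fold (8.95 to 13), miR-136* by 9.11-fold (7.30 to 11.5) and miR-144* by 18.2-fold (10.4 to 35.4). At least 4-fold higher in cerebellum were 8 members (7.41%), against 6.84%: let-7d*, miR-127*, miR-204*, miR-28*, miR-30a*, miR-30c-1*, miR-30c-2* and miR-30e*. miR-204* and let-7d* had the widest differences, 20.5-fold (13.6 to 31.9) and 21.9-fold (16.8 to 28.8), and miR-30a* the narrowest, 4.18-fold (4.04 to 4.33).

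Guides of these 8 moved along in only some of the hairpins. The miR-127 and miR-204 guides were 4.04-fold and 3.64-fold higher in cerebellum, beside 10.9-fold and 20.5-fold for their stars. The miR-28 and miR-30a guides were nearly level, at 1.09-fold and 1.08-fold, beside 15.2-fold and 4.18-fold for the stars. The miR-30c, miR-30e and let-7d guides were lower in cerebellum, at 0.674, 0.661 and 0.114 of brain, beside stars that were 9.28-fold (miR-30c-2*), 4.73-fold (miR-30e*) and 21.9-fold higher. In the opposite set, the miR-376b guide stood at 0.0655 of brain in cerebellum, while the miR-136 guide stood at 0.889 of brain. For miR-144*, red cell miR-451 was 84.6 RPM in brain and 18.5 RPM in cerebellum, and the part of blood was not tested.

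**Figure D3:**
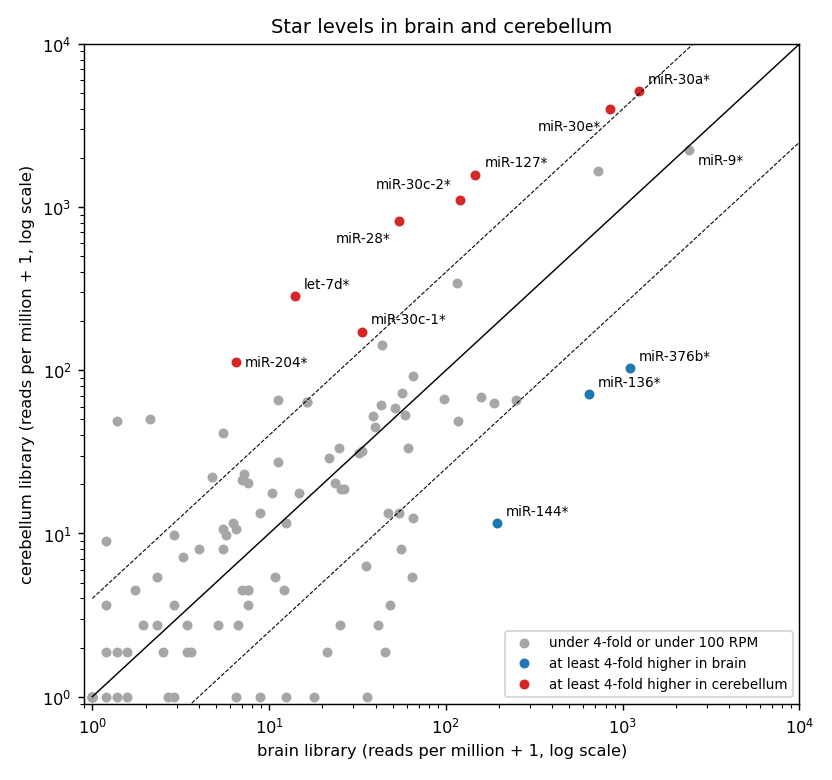
Level of each of the 108 members in the brain library (horizontal) and the cerebellum library (vertical), in RPM with 1 added, on log axes; the solid line marks equal levels and the dashed lines 4-fold. The 8 red points are the members called higher in cerebellum and the 3 blue points those called higher in brain, while miR-9* lies on the line of equal levels.

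The ratio of star to guide was not fixed for a hairpin. Of the 100 members with a share in at least 2 libraries, 76 (76%) had a ratio that differed at least 4-fold between their highest and lowest library with exact intervals apart. Over all 232 arm pairs of the table that could be read so, 52.2% did, and among the 25 pairs named 5p and 3p with at least 100 reads of each arm 84% did. The members thus sat between these sets, which were not matched for reads. Members needed at least 100 star reads in all, the 232 pairs did not, and the last set was held to a higher read minimum. Intervals come apart more readily on more reads, so these percentages compare unlike sets. Without members whose guide is made by several hairpins, 54 of 76 members (71.1%) passed. Because several of the widest ranges ended in a library with hardly any star reads, the ratio was also taken over libraries with at least 10 reads of each arm, a setting chosen after the data were seen. Then 72 of 98 members (73.5%) passed and the median range was 6.69-fold.

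In that stricter set the widest range after miR-143* was that of let-7d*, 190-fold between cerebellum and brain. miR-148a*, from a hairpin abundant in the secretory pancreas, had 0.456% (0.326 to 0.621) in spleen and 0.00540% (0.00334 to 0.00825) in pancreas, where its guide had 389200 reads. miR-322* ranged 66.7-fold, miR-30c-2* 49.0-fold, miR-181a-2* 41.2-fold and miR-145* 40.0-fold. The guides miR-30c and miR-181a are each made by 2 hairpins, so the ranges of miR-30c-2* and miR-181a-2* need not lie within 1 hairpin. miR-29a* was at 6.61% in cerebellum and 0.293% in small intestine.

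Cerebellum was the library with the most raised star ratios. For each of the 90 members with a ratio in at least 4 libraries, the log2 ratio in a library was set against the member's own median over libraries. In cerebellum the median of this shift was 0.75 on the log2 scale over 59 members, with 43 above 0, 15 below, 17 raised at least 4-fold and 5 lowered as much. Heart followed at 0.36, with 45 above and 24 below of 71. Kidney (−0.35), small intestine (−0.36), liver (−0.51), ovary (−0.46) and pancreas (−0.64) lay below 0, the last pair on 32 and 28 members. With at least 10 reads of each arm, cerebellum stood at 0.86 over 38 members, 30 of them above 0, and kidney at −0.45, with 52 of 72 below 0. Under that setting liver lay at −0.14 over 44 members, ovary turned to 1.18 on 4 members and the colon-labelled library to −0.36 on 8. Without it the uterus-labelled library lay at 0.15 and the colon-labelled one at 0.17.

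The shift in cerebellum was not shared by all hairpins. miR-136* (6.81% beside 37.2% in brain), miR-330* (7.14% beside 36.2%) and miR-382* (0.0791% beside 3.74%) had a lower star share in cerebellum than in brain, while let-7d*, miR-9*, miR-28*, miR-30a*, miR-30c-2*, miR-30e* and miR-204* (48.5% beside 14.3%) had a higher one. The cerebellum library was also among the shallowest, and the part of depth or library make in these ratios was not tested.

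**Figure D4:**
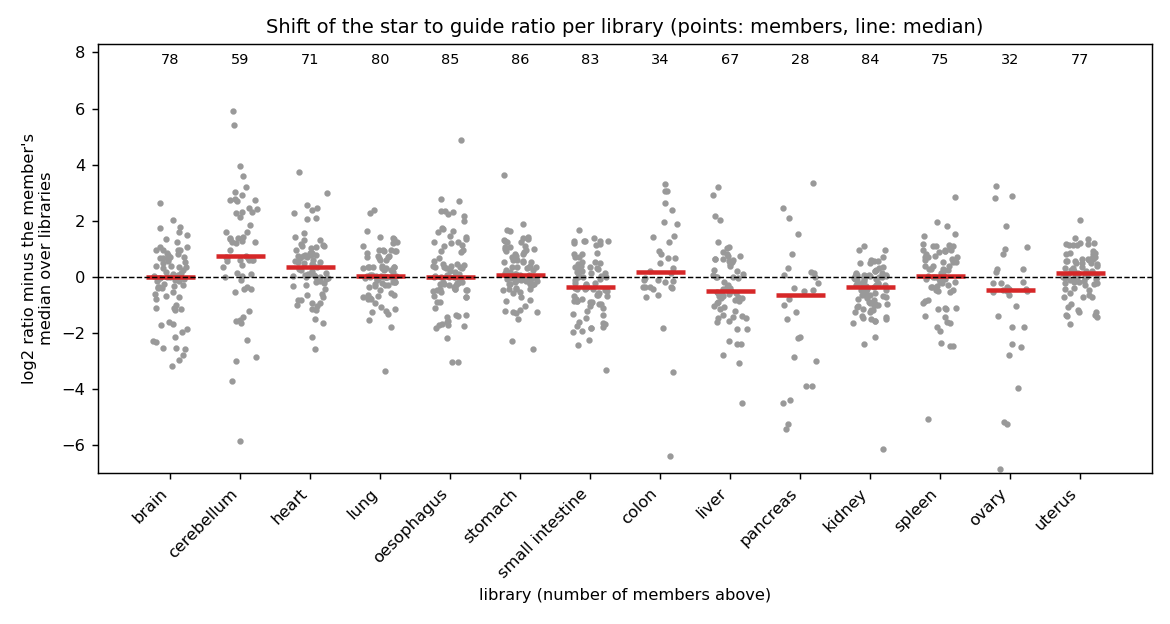
Shift of the log2 star to guide ratio in each library from the member's own median over libraries; grey points are members, red lines are library medians, and the numbers above give the members per library. The median is highest in cerebellum, at 0.75, and lowest in pancreas, at −0.64.

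Stars of sister hairpins can tell apart loci that share a guide. miR-24 is made by Mir24-2, 222 bases from Mir23a on chromosome 8, and by Mir24-1, 650 bases from Mir23b on chromosome 13. miR-24-2* had 4669 reads and miR-24-1* 201, so miR-24-2* made up between 91.3% in brain and 98.0% in spleen of the pair in the 11 libraries with at least 20 reads of it. The guides of the neighbours did not split this way: miR-23a made up between 30.6% (liver) and 61.4% (library labelled colon) of the reads on miR-23a and miR-23b. How evenly both stars are made and captured was not measured.

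miR-194 is made by Mir194-2, 115 bases from Mir192 on chromosome 19, and by Mir194-1, 195 bases from Mir215 on chromosome 1. miR-194-1* had 616 reads in small intestine, 38 in the library labelled uterus, 24 in oesophagus and at most 8 elsewhere, while miR-194-2* had 634 in small intestine, 691 in the library labelled uterus, 446 in liver and 261 in kidney. The share of miR-194-2* in the pair was 50.7% (47.9 to 53.5) in small intestine, 47.8% in oesophagus, 94.8% in the library labelled uterus, 99.8% in liver and 100% (98.6 to 100) in kidney. miR-192 made up 99.2% of miR-192 and miR-215 reads in liver and 99.4% in kidney, 16.3% in small intestine and 33.8% in the library labelled uterus. The uterus-labelled library thus held mostly miR-194-2* while miR-215 outnumbered miR-192 in it.

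miR-181a is made by Mir181a-1, 97 bases from Mir181b-1 on chromosome 1, and by Mir181a-2 on chromosome 2. miR-181a-1* made up 95.5% (92.8 to 97.4) of the pair in brain and 92.8% in cerebellum, but 15.6% (9.89 to 22.8) in heart, where miR-181a-2* had 114 reads beside 21. In lung, kidney, spleen, stomach, small intestine and the library labelled uterus it lay between 59.8% and 75%. For miR-30c, miR-30c-2* made up 65.2% (59.1 to 71.1) of the pair in spleen, 78.7% in brain and between 82.6% and 100% elsewhere. For miR-16, miR-16-2* made up 67.2% (58.2 to 75.3) in spleen and 18.1% (9.98 to 28.9) in kidney, on 125 and 72 reads.

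**Figure D5:**
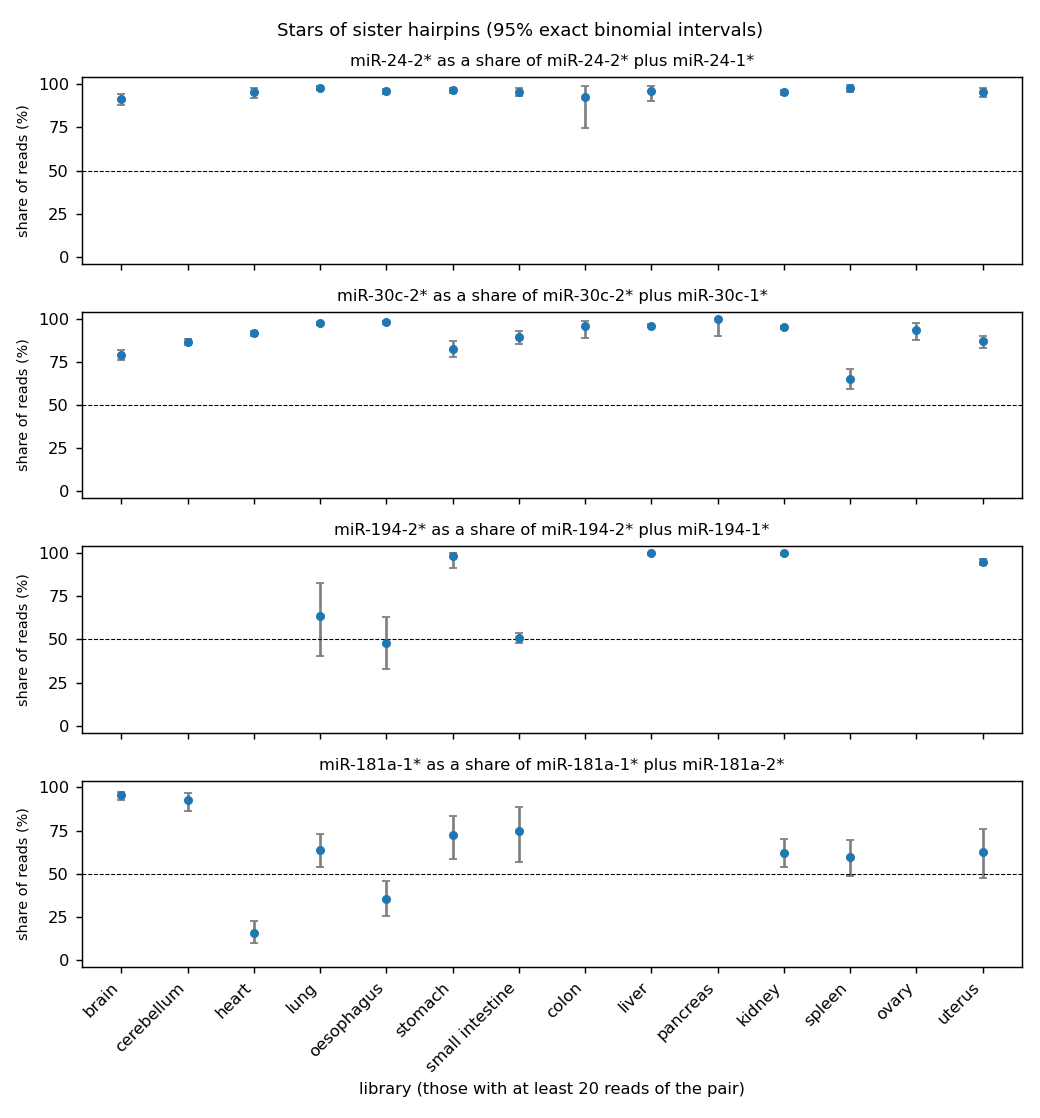
Share of the first named star in the reads of each pair of sister stars (%), by library; points are shares, bars are exact 95% binomial intervals, and libraries with fewer than 20 reads of a pair are left empty. The miR-24 pair stays above 91.3%, the miR-194 pair lies at 50.7% in small intestine and 47.8% in oesophagus, and the miR-181a pair runs from 95.5% in brain to 15.6% in heart.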

How the data were processed

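The authors deposited 1 table of raw counts by miRNA name, per the file headers, with a column for each of the 14 libraries. Trimming, aligner, miRNA release, genome build and the handling of reads with several matches were each not given in the sources used here. Members and gene lists were chosen with earlier results of these data known. The named members were those leading a library or among the 15 highest in any, those past a rule of size, the 15 widest in ratio, those near the read minimum and those in the fixed groups, summarised where they were many.

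Counts were divided by the library total times 1000000 (RPM). Guides were matched by name (108 of 108), and arms to RefSeq by name (106 of 108, with 95 sequences found). Shares have exact Clopper-Pearson, levels exact Poisson and folds exact conditional binomial intervals. A count of 0 allows 3 reads, 0.321 RPM in the deepest and 4.82 RPM in the shallowest library. No test was run, since each tissue has 1 library. Reads carry no molecular identifiers, so intervals cover counting error only. Ratios had 0.5 read added to each arm. Hosts came from GENCODE M21. Rules were tested on simulated data. Python 3.11.15, pandas 2.3.3 and scipy 1.17.1 were used. Alternatives were other scalings, minima and folds, and left-out libraries.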

Additional observations from a re-analysis of the deposited data

How the results depend on the processing

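Counts held within 1.5 times of the reported value under most settings, and the exceptions were these. Tissue-enriched members numbered 15 with totals without the 5 most abundant names, 4 at 10-fold and 20 with a minimum of 10 RPM, in place of 8. Members higher in brain numbered 7 at 2-fold and 16 at 10 RPM, in place of 3, and members higher in cerebellum 13 at 10 RPM, in place of 8. Members at a star share of 50% or more numbered 9 with 500 reads of both arms, in place of 16. The share over all names is not given for these settings. The median share is not a count, and its change is given for each setting tried, though it stayed within 1.5 times. In place of 4.76% it was 4.01% on reads summed over the libraries and 5.55% without guides made by several hairpins. With guide reads divided by their hairpins it was 4.88%. A minimum of 500 summed reads left 54 members. The cause was not tested, beyond what each setting changes by construction. The division by hairpins, the minimum of 10 reads per arm, the setting without near-identical members and 3 sets of left-out libraries were chosen after seeing the data. Leaving out the libraries labelled colon and uterus gave 8, 16 and 75 members for enrichment, a share of 50% and a 4-fold range. Leaving out those labelled colon, ovary and pancreas gave 7, 16 and 80. Leaving out cerebellum gave 9, 16 and 69, with 5 of the 8 enriched members kept. No paired analysis was possible because each tissue has 1 library. Stars of the pancreas, ovary and colon libraries are limited by depth.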

Other observations

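Outside the name rule, 3 further star names had at least 100 reads: miR-3068* with 405, miR-1298* with 360 and miR-1247* with 173. miR-1298*, whose guide had 29 reads, was highest in cerebellum at 157 RPM, and miR-1247*, whose guide had 5, was highest in kidney at 10.4 RPM.

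Names with 1 sequence showed how shared reads were entered. miR-199a-3p and miR-199b have the same RefSeq sequence, made by 2 entries of the first and 1 of the second, and the ratio of their counts lay between 1.96 and 2.02 in all 14 libraries. Whether reads of a sequence were entered once for each of its hairpins is not given in the sources used here and was not tested.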
